A study of Homo sapiens with 54 samples.

Results

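The genes examined were 50 genes that act at the entry into S phase of the cell cycle and in DNA replication, chosen as a fixed list of symbols from the 50037 rows of a table of gene expression. They were followed in 54 RNA sequencing libraries of 2 human cancer cell lines, in 9 groups of 3 libraries per line. HCT116 is a line from a colon cancer and HepG2 a line from a liver cancer, whose labels give the cell type as a liver cancer stem cell. In each line the groups were IL-6 (50 ng/mL), IL-10 (50 ng/mL), TNF-a (100 ng/mL) and Torin1 (1 uM), each for 3 h and 6 h, and a negative control, NC, that received medium alone and has no time in its labels. IL-6 and TNF-a are inflammatory cytokines, IL-10 is a mostly anti-inflammatory cytokine, and Torin1 is a small molecule that blocks the kinase mTOR, which couples growth to nutrients.

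Before S phase, ORC, CDC6 and CDT1 load the ring-shaped helicase MCM2 to MCM7 onto DNA, a step called licensing. CDC45, the GINS complex and MCM10 then switch the helicase on, and polymerases copy the strands with the sliding clamp PCNA and its RFC loader. Cyclin E, made from CCNE1 and CCNE2, drives this transition with CDK2, and E2F factors, released from RB proteins, switch on most of these genes, while E2F7 and E2F8 repress them again. In dividing cells such as cancer cell lines these genes oscillate together over the cell cycle, so their level in a culture follows both the activity per cell and the share of cells near S phase. In bulk RNA, fewer cells in that phase and less RNA per cell cannot be told apart.

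The promoters of several of these genes show the letters by which E2F binding is usually recognised. The window from 250 bases before to 50 bases after each start site, from RefSeq on GRCh38.p14, was searched on both strands for TTTCCCGC, TTTGGCGC, TTTCGCGC or TTTGCCGC. Of the 50 genes, 44 had a window, and 26 of these (59.1%) held a match, against 3.99% of 27305 genes with a window and 6.98% and 7.08% of those tested in HCT116 and HepG2. By role, 6 of 7 licensing genes and 5 of 6 checkpoint and repair genes held one, against 1 of 4 chromatin and histone genes. Among windows with no match were those of FEN1, CCNE1 and PRIM1, which says only that these letters are not in them. The stretches of 90 bases upstream of the start shown here belong to genes whose responses to Torin1 differed. UHRF1 was, with CDC6, the gene that fell by the most in HepG2, and MCM6 and GINS2 fell in both lines. CDT1 rose in both, DTL rose in HCT116 and fell in HepG2, and E2F1 passed the test in neither at 6 h. Matched letters are in capitals, in some cases as the reverse complement, and each stretch is written 5′ to 3′ on the gene's own strand.
UHRF1 (chr19:4909411-4909500, plus strand, 1 of its 3 start sites): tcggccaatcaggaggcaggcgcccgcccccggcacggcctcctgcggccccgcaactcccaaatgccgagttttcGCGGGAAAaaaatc
MCM6 (chr2:135876444-135876533, minus strand, with 2 overlapping matches): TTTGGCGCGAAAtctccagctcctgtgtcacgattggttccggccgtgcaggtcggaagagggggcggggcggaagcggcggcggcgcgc
GINS2 (chr16:85688955-85689044, minus strand): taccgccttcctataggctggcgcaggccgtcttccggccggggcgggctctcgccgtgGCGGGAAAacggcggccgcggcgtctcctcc
CDT1 (chr16:88803699-88803788, plus strand): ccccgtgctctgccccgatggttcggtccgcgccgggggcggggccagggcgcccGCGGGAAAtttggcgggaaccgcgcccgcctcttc
DTL (chr1:212035658-212035747, plus strand): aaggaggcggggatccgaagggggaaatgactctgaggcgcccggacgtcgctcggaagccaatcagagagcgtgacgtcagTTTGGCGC
E2F1 (chr20:33686386-33686475, minus strand, with 2 matches): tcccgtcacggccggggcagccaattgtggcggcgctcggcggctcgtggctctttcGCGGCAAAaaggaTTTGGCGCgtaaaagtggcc
The match of CDC6 lies near its start site, and the 24 bases around it are shown.
CDC6 (chr17:40287878-40287901, plus strand): cattcggaTTTGGCGCgagcgcgg
A match describes the sequence and is not evidence that a factor binds there.

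Expression is given as FPKM, the fragment count divided by gene length and a depth factor of the library, so levels are compared between genes per length. The depth factor was 0.998 to 1.0017 times a median-of-ratios factor. Within a line it rose with total reads but was not exactly proportional to them. The length behind the FPKM differed widely for a pair of members: RFC3 had 24.1 and POLA1 7.61 times the median recovered reads per FPKM of the tested members, and their levels are not set against those of other genes. Whole reads recovered from the table totalled 38.5 to 55.7 M per library in HCT116 and 46.3 to 93.7 M in HepG2, and a gene's 3 libraries of a group differed by a median coefficient of variation of 3.01% and 3.08%. Hepatocyte genes checked the labels: albumin (ALB) lay between 7396 and 9064 FPKM in every HepG2 library and at most 4.65 FPKM in HCT116. In HCT116 the epithelial gene EPCAM lay between 162 and 189 FPKM and CDX2 between 1.41 and 3.13 FPKM, whereas CDX1, VIL1, CDH17, LGALS4 and CEACAM5 of the colon list did not pass 0.0693 FPKM. In HepG2 EPCAM lay between 104 and 117 FPKM and VIL1 between 38.2 and 52.7 FPKM, and the other 5 genes of the colon list did not pass 0.0273 FPKM, so VIL1 ran against the colon label and EPCAM was high in both lines. Blood cell markers did not pass 2.53 FPKM (CD14, in HepG2) and fibroblast markers did not pass 1.81 FPKM (COL1A1, in HCT116). Differences were tested with limma on log2(FPKM + 1) in all 27 libraries of a line, with Benjamini-Hochberg adjustment over all genes tested, and a gene is said to rise or fall where the adjusted p was under 0.05. Of the 50 genes 49 passed the filter of 1 FPKM in 3 libraries in each line. The exception was E2F2, an activating E2F factor, which did not pass 0.0302 FPKM in any library. Nothing says that the 3 libraries of a group came from separate experiments, and the p-values reflect library-to-library spread only, which may be technical in origin.

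The genes were expressed in both lines, with PCNA the highest. In NC, PCNA stood at 214 ± 7.7 FPKM (SD, n = 3) in HCT116 and 371 ± 6.6 FPKM in HepG2. RFC3, a subunit of the clamp loader, stood at 1.22 ± 0.018 FPKM in HCT116 and 1.51 ± 0.023 FPKM in HepG2. It had 4981 to 5456 recovered reads in the HCT116 NC libraries, so its low FPKM does not mean few reads. At such FPKM the scale of log2(FPKM + 1) understates its changes. The other genes above 100 FPKM in HCT116 were MCM7, RRM2, TK1, MCM4, SLBP and FEN1, and in HepG2 they were MCM3, MCM7 and RRM2. The MCM2 to MCM7 subunits, which occur once each in the helicase, did not stand at equal RNA levels. In HCT116 they were 64.5 ± 0.47, 90.5 ± 1.1, 115 ± 1.4, 44.5 ± 0.65, 89.9 ± 1.1 and 153 ± 1.4 FPKM in the order of their numbers. In HepG2 they were 50.5 ± 0.68, 129 ± 1.7, 95.9 ± 1.6, 26.3 ± 0.6, 29.2 ± 0.6 and 117 ± 2.2 FPKM. MCM3 and MCM6 did not differ beyond their spread in HCT116, and MCM5 was the lowest subunit in both lines.

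Between the control groups of the lines, 38 of the 49 genes were higher in HCT116 and 7 higher in HepG2, with a median log2 difference of 0.27. Over all 12992 genes tested 42.2% were higher in HCT116 and 43.3% higher in HepG2, with a median of -0.0055. CCNE2, a cyclin E gene, stood at 10.2, 10.3 and 10.2 FPKM in HCT116 and 1.98, 2.05 and 2.24 FPKM in HepG2, a log2 difference of 1.86 (SE 0.059, adjusted p = 3.19e-28). The other cyclin E gene, CCNE1, differed far less, at 31.5, 29.2 and 29.8 against 24.9, 25.3 and 24.4 FPKM. MCM6 stood at 91.1, 88.97 and 89.5 FPKM in HCT116 and 29.7, 29.2 and 28.5 FPKM in HepG2, a difference of 1.59 (SE 0.034, adjusted p = 1.54e-34). TK1, the thymidine kinase that salvages thymidine, stood at 132, 135 and 128 against 45.8, 47.6 and 46.9 FPKM, a difference of 1.47 (SE 0.051, adjusted p = 5.65e-27). The largest differences the other way were those of E2F1, GINS1 and PCNA. E2F1, an activating E2F factor, stood at 8.07, 8.61 and 8.805 FPKM in HCT116 and 26.7, 27.2 and 29.1 FPKM in HepG2, a difference of -1.59 (SE 0.058, adjusted p = 4.75e-26). GINS1 stood at 23.6, 24.9 and 24.2 against 46.2, 46.5 and 48.3 FPKM (-0.93), and PCNA at 223, 209.6 and 209.5 against 372, 364 and 377 FPKM (-0.79). For none of these 6 genes did the libraries of the lines overlap. When libraries were scaled by total reads, which shifts the median over all genes by 0.19 on the log2 scale, 42 genes were higher in HCT116 and 5 in HepG2.

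Torin1 lowered nearly the whole set in HepG2, and the fall deepened between 3 h and 6 h. After 3 h 26 of the 49 genes fell and 2 rose, against 26.1% and 19.4% of all genes tested, and after 6 h 41 fell and 2 rose, against 33.8% and 26.1%. The median change of the set was -0.13 at 3 h and -0.38 at 6 h, beside -0.036 and -0.033 over all genes. Between the hours themselves 39 genes fell and 0 rose, against 19.3% and 17.0% of all genes, with a median of -0.24. In 40 of the 49 genes the lowest group mean of the 9 HepG2 groups was that of 6 h of Torin1. In the 3 libraries of that group 44 to 47 of the 49 genes lay below the NC mean. For neither count was the share over all genes taken. At 6 h the libraries of 43 genes lay wholly below NC and of 2 wholly above, against 38.1% and 29.4% of all genes.

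**Figure D1:**
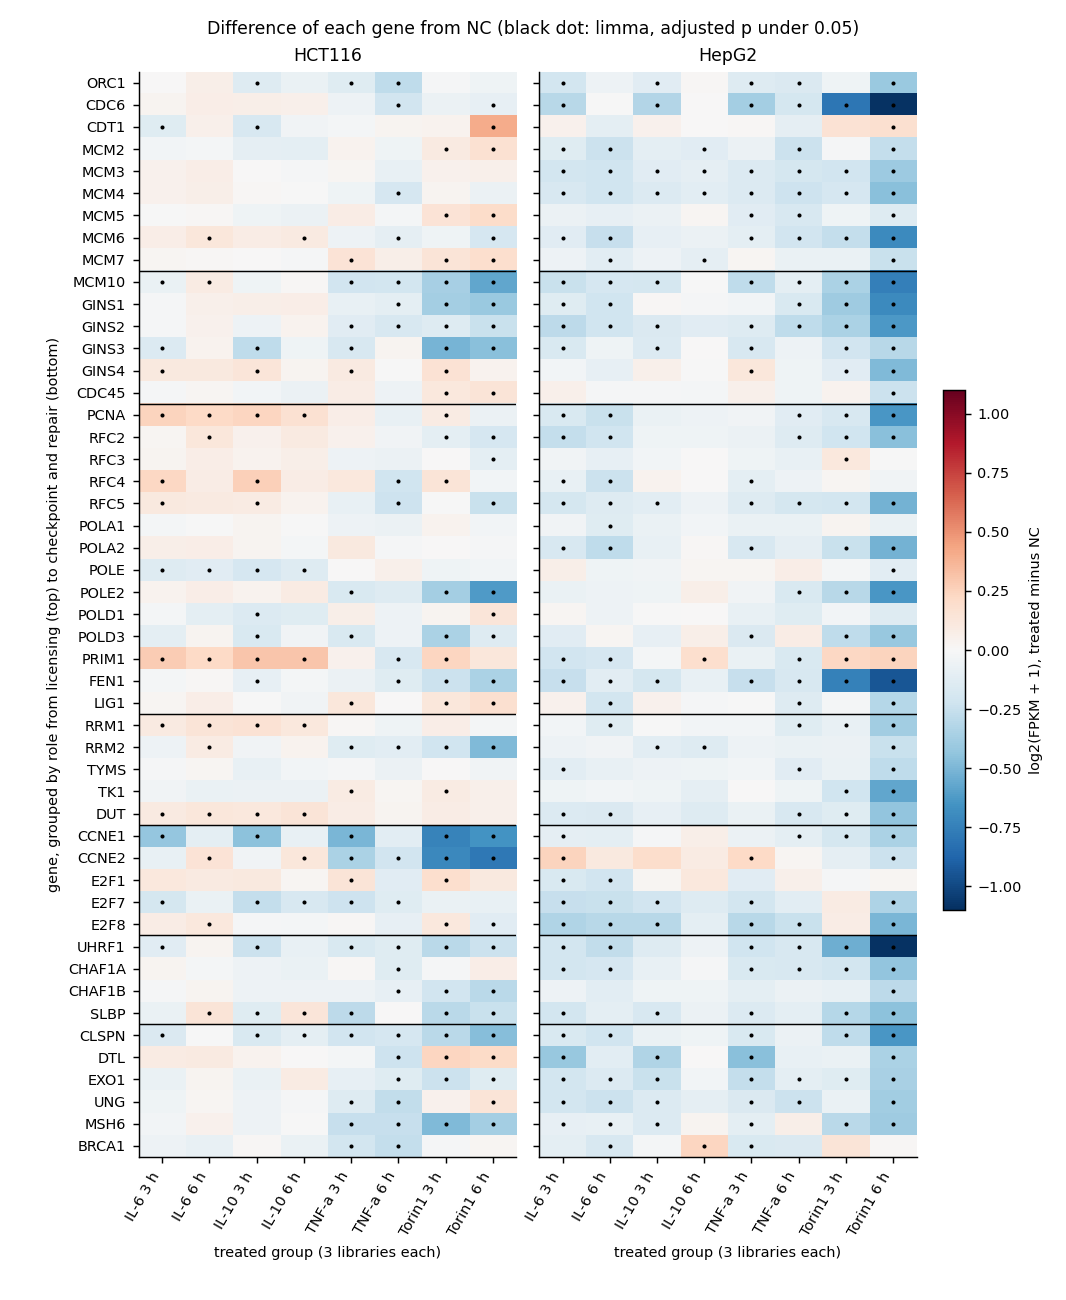
Difference of each of the 49 tested genes from NC on the log2(FPKM + 1) scale, in HCT116 (left) and HepG2 (right), with treated groups of 3 libraries in columns and genes in rows, ordered by role and separated by lines. Blue is lower and red is higher than NC, a black dot marks an adjusted p under 0.05 (limma), and the last HepG2 column, 6 h of Torin1, is blue in nearly every row with 41 falls and 2 rises.

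The deepest falls in HepG2 were in CDC6, UHRF1 and FEN1. CDC6, the helicase loader, stood at 43.01, 41.8 and 42.7 FPKM in NC, 23.9, 24.3 and 24.2 FPKM after 3 h and 19.1, 20.5 and 18.9 FPKM after 6 h of Torin1. Every Torin1 library lay below every NC library and the hours did not overlap. The log2 change was -0.79 (SE 0.027, adjusted p = 2.43e-15) at 3 h and -1.09 (SE 0.027, adjusted p = 1.68e-17) at 6 h. UHRF1, which brings the maintenance DNA methyltransferase to newly copied DNA, stood at 32.3, 33.8 and 33.3 FPKM in NC, 22.5, 23.6 and 21.5 FPKM at 3 h and 14.7, 15.7 and 14.7 FPKM at 6 h. It fell by more than its spread at each step, with a change of -0.54 (SE 0.061, adjusted p = 3.26e-07) at 3 h and -1.09 (SE 0.061, adjusted p = 2.63e-12) at 6 h, and of -0.55 from 3 h to 6 h. FEN1, the nuclease that trims Okazaki fragments, stood at 62.03, 63.9 and 62.7 FPKM in NC, 37.5, 36.99 and 36.7 FPKM at 3 h and 30.9, 33.1 and 32.99 FPKM at 6 h. Its change was -0.75 (SE 0.03, adjusted p = 2.13e-14) at 3 h and -0.94 (SE 0.03, adjusted p = 3.83e-16) at 6 h, so most of its fall was present by 3 h. All of these values lay outside the range of the NC libraries.

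By role, the falls in HepG2 after 6 h of Torin1 took in every step of replication. Of the 9 licensing genes 8 fell, with a median of -0.40. CDC6 and MCM6 (-0.70) fell most of these, MCM4, ORC1 and MCM3 followed at -0.46, -0.41 and -0.40, and MCM5 fell least at -0.14. MCM6 went from 29.7, 29.2 and 28.5 FPKM in NC to 17.4, 17.9 and 17.5 FPKM, without overlap. All 6 genes of helicase activation fell, with a median of -0.56. MCM10, which binds the activated helicase, changed by -0.75, GINS1, GINS2, GINS3 and GINS4 by -0.70, -0.63, -0.30 and -0.48, and CDC45 by -0.24. All 5 genes of nucleotide supply fell, led by TK1 at -0.57, with the ribonucleotide reductase genes RRM1 and RRM2 at -0.38 and -0.24. TK1 stood at 30.7, 32.5 and 30.4 FPKM after 6 h, all below its NC libraries. All 4 genes of chromatin and histone supply fell, UHRF1 most, and SLBP, the binding protein of histone messages, CHAF1A and CHAF1B, subunits of the histone chaperone CAF-1, at -0.45, -0.44 and -0.29.

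Of the 14 polymerase, clamp and joining genes 9 fell in HepG2 after 6 h, 1 rose and 4 did not pass the test. PCNA went from 372, 364 and 377 FPKM in NC to 225, 257 and 232 FPKM, a change of -0.64 (SE 0.041, adjusted p = 2.2e-11). POLE2, a subunit of the leading strand polymerase, changed by -0.64, POLA2 of the primase complex by -0.52, and RFC2 and RFC5 of the clamp loader by -0.46 and -0.52. The other loader subunits did not pass, RFC3 at -0.0083 and RFC4 at -0.037, nor did POLA1 (-0.069) and POLD1 (-0.14). Of the 5 tested G1/S regulators 4 fell, CCNE1, CCNE2, E2F7 and E2F8 at -0.34, -0.23, -0.34 and -0.50, while E2F1 stood at 26.7, 27.2 and 29.1 FPKM in NC and 27.6, 28.1 and 28.7 FPKM after Torin1 (adjusted p = 0.733). Of the 6 checkpoint and repair genes 5 fell, led by CLSPN, the adaptor of the replication checkpoint, at -0.64, and BRCA1 stood at 0.013 (adjusted p = 0.875). E2F8 was not past the test at 3 h: it stood at 9.98, 10.7 and 10.4 FPKM in NC, 10.6, 11.5 and 10.96 FPKM at 3 h and 6.55, 7.41 and 7.06 FPKM at 6 h, a change of -0.59 (SE 0.055, adjusted p = 3.95e-08) between the hours.

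PRIM1 and CDT1 were the exceptions that rose in HepG2 after 6 h. PRIM1, the catalytic subunit of primase, stood at 28.8, 27.7 and 30.4 FPKM in NC, 36.7, 32.2 and 33.7 FPKM at 3 h and 33.5, 35.97 and 34.005 FPKM at 6 h of Torin1, above NC in every library. The change was 0.23 (SE 0.047, adjusted p = 0.000425) at 3 h and 0.24 (SE 0.047, adjusted p = 0.000144) at 6 h. CDT1, the licensing factor that works with CDC6, stood at 12.1, 13.3 and 12.6 FPKM in NC and 14.8, 14.2 and 14.1 FPKM after 6 h, a change of 0.17 (SE 0.068, adjusted p = 0.0337). The call of CDT1 was lost with no filter on low genes (adjusted p = 0.085) and with scaling by total reads (0.0613). It was also lost without NC replicate 1 or 3 or without any one of the Torin1 replicates 1, 2 and 3, at adjusted p from 0.0507 to 0.124. At 3 h the rises were PRIM1 and RFC3, the latter at 0.11.

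In HCT116 genes of the set both fell and rose with the same drug, at 3 h in shares (34.7% and 26.5%) near those of all genes. After 6 h of Torin1 22 genes fell and 9 rose, against 31.5% and 25.8% of all genes tested, and after 3 h 17 fell and 13 rose, against 28.6% and 25.1%. The median change was -0.0038 at 3 h and -0.065 at 6 h, beside -0.0046 and -0.02 over all genes. At 3 h the libraries of 13 genes lay wholly above and of 17 wholly below NC, against 27.8% and 31.3% of all genes. At 6 h 31 of the 49 genes were called either way, a share near that of all genes (57.2%). The deepest falls were in both cyclin E genes. CCNE2 stood at 10.2, 10.3 and 10.2 FPKM in NC, 5.55, 5.903 and 6.18 FPKM at 3 h and 5.71, 5.46 and 5.35 FPKM at 6 h. Its change was -0.71 (SE 0.039, adjusted p = 4.56e-12) at 3 h and -0.79 (SE 0.039, adjusted p = 7.03e-13) at 6 h. CCNE1 stood at 31.5, 29.2 and 29.8 FPKM in NC, 17.8, 17.4 and 17.9 FPKM at 3 h and 20.2, 17.9 and 18.4 FPKM at 6 h, a change of -0.74 (SE 0.045, adjusted p = 2.29e-11) and -0.65 (SE 0.045, adjusted p = 1.13e-10). Neither gene's Torin1 libraries overlapped NC. The split of calls at 3 h depended on the scaling. With median-of-ratios factors recomputed on the genes above 0 in every library of the line, 9 rose and 18 fell. The counts were 9 and 16 with no filter, and 6 rose and 20 fell with total reads.

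**Figure D2:**
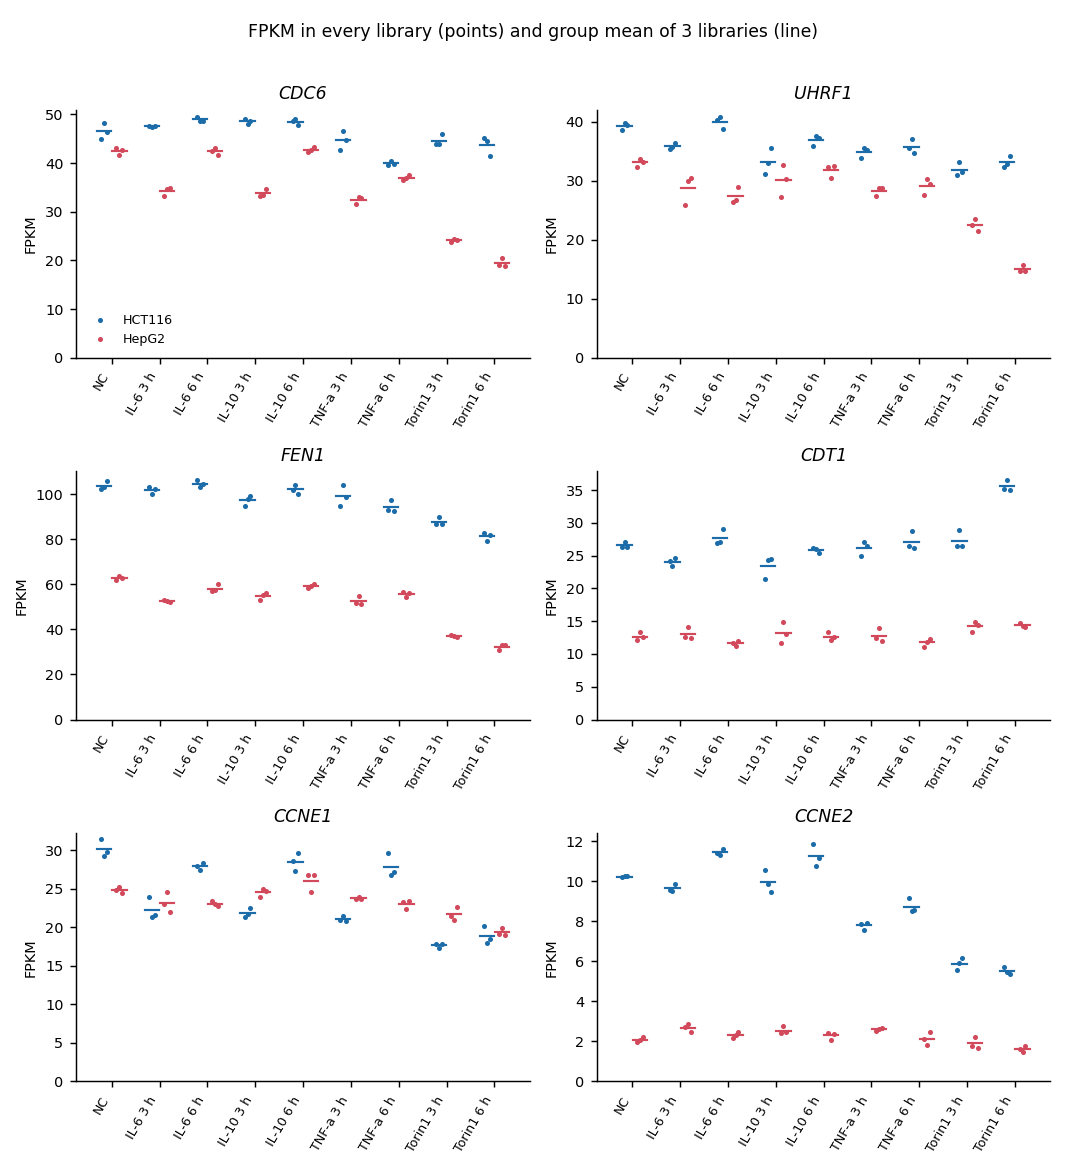
FPKM of CDC6, UHRF1, FEN1, CDT1, CCNE1 and CCNE2 in every library (points) with the mean of the 3 libraries of a group (short line), HCT116 in blue and HepG2 in red, over the 9 groups, with each axis starting at 0. CDC6, UHRF1 and FEN1 step down at 3 h and 6 h of Torin1 in HepG2, CCNE1 and CCNE2 step down most in HCT116, and CDT1 is highest in HCT116 after 6 h of Torin1.

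Genes of helicase activation and POLE2, a subunit of the leading strand polymerase, also fell in HCT116. POLE2 stood at 14.7, 15.04 and 13.7 FPKM in NC, 11.7, 10.4 and 10.7 FPKM at 3 h and 9.601, 7.98 and 9.58 FPKM at 6 h, a change of -0.63 (SE 0.063, adjusted p = 3.44e-08) at 6 h. MCM10 changed by -0.37 at 3 h and -0.57 at 6 h on the log2 scale. GINS3 stood at 19.4, 20.8 and 19.1 FPKM in NC, 13.3, 13.6 and 13.9 FPKM at 3 h and 14.5, 13.4 and 14.4 FPKM at 6 h, a change of -0.51 (SE 0.047, adjusted p = 9.67e-09) at 3 h. GINS1 and GINS2 changed by -0.41 and -0.24 at 6 h, whereas GINS4 stood at 0.043 (adjusted p = 0.362) and CDC45 rose, at 0.14. RRM2, the small subunit of ribonucleotide reductase, changed by -0.49, and the other 4 genes of nucleotide supply did not pass the test. CLSPN changed by -0.47, the mismatch repair gene MSH6 by -0.38 and FEN1 by -0.35. The loader genes RFC2, RFC3 and RFC5 changed by -0.19, -0.11 and -0.25, and RFC4 stood at -0.033 (adjusted p = 0.582).

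Of the 9 genes that rose in HCT116 after 6 h, 4 were licensing genes. CDT1 stood at 26.3, 27.1 and 26.3 FPKM in NC, 26.5, 28.8 and 26.5 FPKM at 3 h and 35.2, 36.6 and 34.96 FPKM at 6 h of Torin1. The libraries at 6 h lay above all NC and 3 h libraries, with a change of 0.41 (SE 0.047, adjusted p = 1.98e-07) from NC and of 0.37 (SE 0.047, adjusted p = 3.95e-06) from 3 h. MCM5 stood at 44.6, 45.1 and 43.9 FPKM in NC and 49.5, 51.4 and 53.3 FPKM at 6 h, without overlap, a change of 0.20 (SE 0.038, adjusted p = 0.000106). MCM2 and MCM7 rose by 0.17 and 0.18, MCM6 fell, at -0.19, and MCM3 (0.057) and MCM4 (-0.067) did not pass. DTL, the substrate receptor of the ligase that destroys CDT1 protein in S phase, stood at 21.9, 21.6 and 21.7 FPKM in NC, 25.4, 25.9 and 26.1 FPKM at 3 h and 23.8, 24.8 and 27.5 FPKM at 6 h. Its change was 0.24 (SE 0.039, adjusted p = 3.17e-05) at 3 h and 0.21 (SE 0.039, adjusted p = 0.00011) at 6 h, and each Torin1 library lay above NC. The ligase LIG1, the uracil glycosylase UNG, CDC45 and POLD1 also rose, by 0.17, 0.14, 0.14 and 0.13. At 3 h PRIM1 rose, from 34.9, 34.7 and 33.01 to 40.2, 38.9 and 42.3 FPKM (0.24, SE 0.054, adjusted p = 0.000951), and at 6 h it stood at 39.1, 34.98 and 38.2 FPKM, above NC in every library but not past the test (adjusted p = 0.0542). E2F1 stood at 8.07, 8.61 and 8.805 FPKM in NC and 9.14, 10.7 and 9.67 FPKM after 3 h, a change of 0.19 (SE 0.056, adjusted p = 0.007). That call was lost without Torin1 3 h replicate 2 (adjusted p = 0.0619).

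From 3 h to 6 h of Torin1 in HCT116 5 genes rose and 15 fell, against 14.1% and 16.3% of all genes. Besides CDT1, POLD3, a subunit of the lagging strand polymerase, rose from 5.62, 5.17 and 5.16 to 6.34, 6.06 and 6.41 FPKM (0.20, SE 0.044, adjusted p = 0.00126), still below its NC libraries of 7.11, 7.15 and 6.82 FPKM. RRM2 fell from 117, 123 and 123 to 98.97, 98.5 and 102 FPKM (-0.27, SE 0.026, adjusted p = 1.33e-07), without overlap, and POLE2 fell, with a change of -0.25 (SE 0.063, adjusted p = 0.00468). The call of POLE2 was lost when only the groups compared entered the fit (adjusted p = 0.0534). Without Torin1 6 h replicate 2 the counts were 4 and 9, and with only the groups compared 3 and 8. With total reads they were 8 and 11.

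The change after Torin1 differed between the lines for most of the set, tested as the difference of the changes in 1 fit of all 54 libraries. At 6 h 35 genes had a higher change in HCT116 and 5 a lower one, against 26.4% and 23.7% of the 9683 genes tested in both lines. After 3 h the counts were 20 and 7, against 20.4% and 19.5%. CDC6 differed most: it stood at 44.999, 48.3 and 46.4 FPKM in NC and 45.2, 44.5 and 41.4 FPKM after 6 h in HCT116, a change of -0.09, against -1.09 in HepG2. The difference of 1.00 (SE 0.041, adjusted p = 2.88e-21) at 6 h and 0.73 (SE 0.041, adjusted p = 1.84e-17) at 3 h exceeded the spread between libraries. UHRF1 stood at 38.6, 39.7 and 39.4 FPKM in NC and 32.4, 32.8 and 34.2 FPKM after 6 h in HCT116, and its difference between lines was 0.85 (SE 0.073, adjusted p = 1.84e-12). TK1 stood at 132, 135 and 128 FPKM in NC and 134, 137 and 139 FPKM after 6 h in HCT116, a change of 0.056 that did not pass, and its difference between lines was 0.63 (SE 0.071, adjusted p = 2.49e-09). The genes that fell more in HCT116 were CCNE2, CCNE1, RRM2, GINS3 and RFC3, at -0.56, -0.31, -0.24, -0.16 and -0.10. At 3 h the differences of CCNE2 and CCNE1 were -0.61 (SE 0.083, adjusted p = 1.81e-07) and -0.55 (SE 0.058, adjusted p = 7.17e-10). CCNE2 stood at 2.09 FPKM in HepG2 controls, a low level at which the scale of log2(FPKM + 1) understates its changes.

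**Figure D3:**
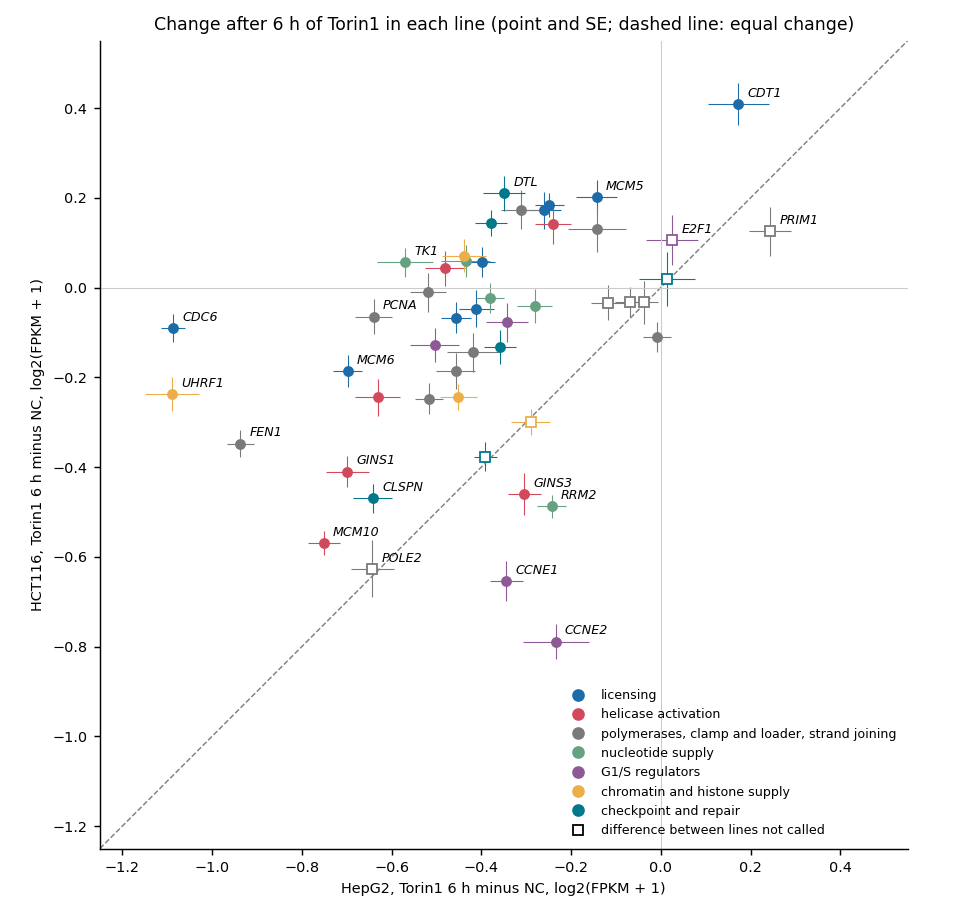
Change of each of the 49 genes after 6 h of Torin1 on the log2(FPKM + 1) scale, HepG2 on the horizontal and HCT116 on the vertical axis, with standard errors, colours by role and a dashed line of equal change; filled circles mark genes whose change differed between lines (limma, adjusted p under 0.05) and open squares those that did not pass. CDC6 and UHRF1 lie far above the line, at -1.09 in HepG2, and CCNE2 and CCNE1 lie below it.

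After TNF-a a part of the set stood below NC in both lines, with other genes leading in each. In HCT116 16 genes fell and 5 rose at 3 h, against 22.4% and 19.2% of all genes, and 23 fell and 0 rose at 6 h, against 17.1% and 16.7%. The median of the set was -0.053 and then -0.10, beside -0.0041 and -0.0064 over all genes. At 3 h all libraries of 25 genes lay below NC, against 27.8% of all genes. The largest changes at 3 h were falls of CCNE1, CCNE2 and SLBP. CCNE1 stood at 31.5, 29.2 and 29.8 FPKM in NC, 20.9, 21.5 and 20.8 FPKM at 3 h and 29.6, 26.8 and 27.2 FPKM at 6 h. It changed by -0.50 (SE 0.045, adjusted p = 1.28e-08) at 3 h and rose again by 0.39 (SE 0.045, adjusted p = 1.11e-06) from 3 h to 6 h. CCNE2 stood at 7.89, 7.59 and 7.94 FPKM at 3 h and 9.17, 8.53 and 8.55 FPKM at 6 h, all below its NC libraries, with a change of -0.35 (SE 0.039, adjusted p = 2.61e-07) at 3 h. SLBP stood at 112, 115 and 116 FPKM in NC, 90.6, 97.7 and 92.5 FPKM at 3 h and 114, 114 and 116 FPKM at 6 h, a change of -0.29 (SE 0.029, adjusted p = 7.56e-08) followed by a rise of 0.29 (SE 0.029, adjusted p = 1.44e-07). The rises at 3 h were small. MCM7 went from 154, 152 and 155 to 166, 174 and 171 FPKM (0.15, SE 0.027, adjusted p = 0.000122), LIG1 from 14.1, 14.9 and 15.1 to 15.6, 16.2 and 16.6 FPKM (0.12, adjusted p = 0.024) and E2F1 from 8.07, 8.61 and 8.805 to 9.09, 9.999 and 9.396 FPKM (0.14, adjusted p = 0.0427). The calls of LIG1 and E2F1 were lost with no filter or with total reads, LIG1 also without NC replicate 1 or TNF-a replicate 2 or 3 (adjusted p from 0.0578 to 0.12), and E2F1 with median-of-ratios factors (0.0515) and without NC replicate 1 or 2 or TNF-a replicate 2 or 3 (0.0649 to 0.177). With total reads 1 gene rose and 26 fell.

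ORC1, UNG and BRCA1 fell most after 6 h of TNF-a in HCT116. ORC1, the origin subunit whose level peaks in G1, stood at 18.9, 19.98 and 19.6 FPKM in NC and 16.4, 16.4 and 14.96 FPKM at 6 h, a change of -0.28 (SE 0.041, adjusted p = 1.54e-05). UNG stood at 73.5, 73.9 and 73.5 FPKM in NC and 60.5, 62.3 and 59.6 FPKM, a change of -0.27 (SE 0.03, adjusted p = 2.56e-07). BRCA1, which acts in repair by homologous recombination, stood at 7.48, 6.88 and 7.38 FPKM in NC and 5.79, 6.07 and 5.76 FPKM, a change of -0.26 (SE 0.059, adjusted p = 0.00148). No library of the treated groups overlapped NC in these 3 genes. All 6 checkpoint and repair genes fell, with a median of -0.24, as did 3 of 4 chromatin and histone genes, 3 of 6 of helicase activation, 4 of 9 licensing genes (median -0.085), 2 of 5 G1/S regulators, 4 of 14 polymerase and clamp genes and 1 of 5 genes of nucleotide supply. The difference between roles was not tested. With total reads 35 genes fell and 0 rose. From 3 h to 6 h 5 genes rose and 19 fell, against 20.2% and 17.0% of all genes. Of these RFC4 fell from 52.6, 58.2 and 53.9 to 43.5, 44.8 and 41.7 FPKM (-0.33, SE 0.049, adjusted p = 1.75e-05) and E2F1 from 9.09, 9.999 and 9.396 to 7.74, 8.35 and 7.07 FPKM (-0.27, SE 0.056, adjusted p = 0.00067). With only the groups compared in the fit 4 rose and 10 fell, and with median-of-ratios factors 6 and 12.

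In HepG2 25 genes fell and 2 rose after 3 h of TNF-a, against 16.9% and 12.8% of all genes, and 26 fell and 0 rose after 6 h, against 16.8% and 11.9%. The median was -0.11 at 3 h and -0.12 at 6 h, beside -0.016 and -0.026 over all genes. DTL stood at 18.7, 17.8 and 18.5 FPKM in NC, 11.8, 14.04 and 13.3 FPKM at 3 h and 16.5, 17.3 and 18.04 FPKM at 6 h. Its change of -0.46 (SE 0.047, adjusted p = 1.21e-07) at 3 h was followed by a rise of 0.38 (SE 0.047, adjusted p = 3.69e-06), and at 6 h it was not past the test (adjusted p = 0.208). CDC6 stood at 31.5, 33.1 and 32.9 FPKM at 3 h and 36.6, 36.9 and 37.5 FPKM at 6 h, below NC in every library, with a change of -0.38 (SE 0.027, adjusted p = 7.08e-10) at 3 h. E2F8 stood at 7.51, 8.75 and 8.25 FPKM at 3 h and 7.8995, 9.08 and 8.802 FPKM at 6 h, a change of -0.31 (SE 0.055, adjusted p = 0.000164) and -0.24 (SE 0.055, adjusted p = 0.002). The 3 h falls of DTL, CDC6 and E2F8 were shared by the other cytokines against the same NC libraries. They were -0.42, -0.30 and -0.33 with IL-6 and -0.33, -0.32 and -0.31 with IL-10. Against IL-10 of 3 h, TNF-a had 1 of the 49 genes lower and 0 higher. A difference of NC from all treated groups was not tested. At 6 h GINS2 went from 20.4, 20.5 and 21.2 to 17.7, 16.8 and 16.2 FPKM (-0.28, SE 0.05, adjusted p = 0.000231) and UNG from 55.7, 57.3 and 56.5 to 46.3, 48.4 and 48.8 FPKM (-0.24, SE 0.036, adjusted p = 3.98e-05), both without overlap. The rises at 3 h were those of CCNE2, from 1.98, 2.05 and 2.24 to 2.499, 2.63 and 2.68 FPKM (0.22, adjusted p = 0.0262), and GINS4, from 12.1, 11.3 and 12.5 to 13.1, 13.4 and 12.8 FPKM (0.12, adjusted p = 0.0437). Both calls were lost with no filter, and GINS4 also with total reads (adjusted p = 0.172) and only the groups compared (0.0663). They were also lost without NC replicate 1 or 2 or TNF-a replicate 2 or 3, GINS4 also without TNF-a replicate 1, at adjusted p from 0.066 to 0.0972 for CCNE2 and from 0.0543 to 0.23 for GINS4. Without TNF-a 6 h replicate 1 the falls at 6 h numbered 16.

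From 3 h to 6 h of TNF-a in HepG2 8 genes rose and 9 fell, against 12.0% and 13.4% of all genes. POLD3 rose from 5.49, 5.597 and 5.26 to 6.46, 6.34 and 7.03 FPKM (0.24, SE 0.058, adjusted p = 0.0042). MCM2 fell from 47.001, 50.6 and 47.5 to 40.7, 44.7 and 42.9 FPKM (-0.17, SE 0.038, adjusted p = 0.00177), without overlap. CCNE2 fell to 2.14, 1.83 and 2.45 FPKM (-0.20, adjusted p = 0.0475), a call lost under 7 other settings at adjusted p from 0.052 to 0.115, and without any one of the TNF-a 3 h replicates 1, 2 and 3 or TNF-a 6 h replicate 1 or 2, at 0.0644 to 0.252. Dropping the filter gave 6 and 2; the counts were 11 and 2 with total reads, and 7 and 3 with only the groups compared. They were 7 and 4 without TNF-a 3 h replicate 1 or without TNF-a 6 h replicate 1, 9 and 2 without TNF-a 3 h replicate 2, and 6 and 5 without TNF-a 6 h replicate 2.

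The TNF-a changes differed between the lines for 12 genes with a higher and 4 with a lower change in HCT116 at 3 h, against 10.7% and 12.2% of all genes tested. CCNE2 and CCNE1 fell more in HCT116, with differences of -0.57 (SE 0.083, adjusted p = 1.03e-06) and -0.44 (SE 0.058, adjusted p = 1.83e-07). DTL differed the other way by 0.44 (SE 0.062, adjusted p = 5.4e-07), at 21.9, 21.6 and 21.7 FPKM in NC and 20.9, 21.6 and 21.7 FPKM after 3 h in HCT116, where it was not past the test. The 3 h falls of CCNE1 in HCT116 and of DTL in HepG2 were shared by IL-6 (-0.42 and -0.42) and IL-10 (-0.45 and -0.33) against the same NC libraries. Whether these differences between lines are particular to TNF-a was not tested. At 6 h the counts were 3 and 1, against 10.4% and 6.35%. MSH6 went from 29.8, 28.9 and 29.6 to 24.8, 24.99 and 23.7 FPKM in HCT116 and from 25.9, 25.3 and 25.4 to 26.3, 26.8 and 27.1 FPKM in HepG2, a difference of -0.32 (SE 0.041, adjusted p = 1e-07). DUT, which keeps uracil out of DNA, went from 35.9, 34.9 and 33.9 to 34.95, 36.7 and 35.3 FPKM in HCT116 and from 37.4, 34.6 and 33.7 to 30.8, 30.2 and 32.3 FPKM in HepG2, a difference of 0.20 (SE 0.065, adjusted p = 0.0233). MCM2 went from 64.001, 64.5 and 64.9 to 60.9, 65.2 and 60.8 FPKM in HCT116 and from 49.7, 51.1 and 50.6 to 40.7, 44.7 and 42.9 FPKM in HepG2, a difference of 0.18 (SE 0.056, adjusted p = 0.0169). The 6 h split turned with the scaling: with total reads 0 genes had a higher and 8 a lower change in HCT116, and DUT and MCM2 were lost (adjusted p = 0.0862 and 0.116). With the replicate block the counts were 7 and 2, without HCT116 TNF-a 6 h replicate 1 they were 5 and 2, and without HCT116 TNF-a 6 h replicate 2 they were 0 and 3. DUT was lost without HCT116 NC replicate 3, HCT116 TNF-a replicate 2, HepG2 NC replicate 1 or HepG2 TNF-a replicate 2 (0.0655 to 0.096), and MCM2 without HCT116 TNF-a replicate 2 or HepG2 TNF-a replicate 1 (0.0708 to 0.0756).

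In HCT116 a part of the set differed from NC after IL-6 or IL-10, and the test called no gene of the set between these cytokines. After 3 h of IL-6 7 rose and 8 fell, against 15.9% and 15.6% of all genes, so the share called, 15 of 49, was near that of all genes (31.6% either way). After 3 h of IL-10 7 rose and 12 fell, against 21.8% and 16.9%. The medians were -0.012 and -0.037, beside 0.0049 and 0.015 over all genes. PRIM1, PCNA and RFC4 rose at 3 h with both. PRIM1 stood at 34.9, 34.7 and 33.01 FPKM in NC, 42.7, 41.7 and 40.4 FPKM with IL-6 and 45.3, 40.7 and 41.5 FPKM with IL-10, changes of 0.28 (SE 0.054, adjusted p = 0.000632) and 0.30 (SE 0.054, adjusted p = 0.000175). PCNA stood at 223, 209.6 and 209.5 FPKM in NC, 256, 251 and 253 FPKM with IL-6 and 261, 245 and 251 FPKM with IL-10, changes of 0.25 (SE 0.039, adjusted p = 7.69e-05) and 0.24 (SE 0.039, adjusted p = 7.9e-05). RFC4 stood at 52.2, 48.6 and 50.8 FPKM in NC, 60.8, 59.3 and 57.7 FPKM with IL-6 and 63.02, 58.4 and 60.5 FPKM with IL-10, changes of 0.23 (SE 0.049, adjusted p = 0.00136) and 0.26 (SE 0.049, adjusted p = 0.000292). In none of these did a treated library overlap NC. Against IL-10 of the same hour limma called 0 of the 49 genes with IL-6 at 3 h and 0 at 6 h, against 0.237% and 0.114% of all genes, with 9 and 13 genes at an unadjusted p under 0.05. The groups were not alike at 6 h, when 40 genes stood higher with IL-6 and 9 lower. The median difference was 0.051, beside -0.0028 over all genes. IL-6 libraries lay wholly above IL-10 for 16 genes and wholly below for 0, against 7.57% and 7.83% of all genes. At 3 h these were 9 and 4 genes, against 5.15% and 9.23%.

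CCNE1 fell at 3 h in HCT116 with every cytokine given and also with Torin1 (-0.74), so in each treated group of that hour. It stood at 31.5, 29.2 and 29.8 FPKM in NC, 23.9, 21.4 and 21.7 FPKM with IL-6 and 21.4, 21.7 and 22.5 FPKM with IL-10, below NC in each library, with changes of -0.42 (SE 0.045, adjusted p = 6.39e-07) and -0.45 (SE 0.045, adjusted p = 1.91e-07). At 6 h it stood at 28.02, 27.5 and 28.3 FPKM and 28.6, 27.3 and 29.6 FPKM, a rise from 3 h of 0.31 (SE 0.045, adjusted p = 4.1e-05) and 0.37 (SE 0.045, adjusted p = 5.21e-06). E2F7, a repressing E2F factor, stood at 6.496, 6.31 and 6.21 FPKM in NC, 5.77, 5.43 and 5.05 FPKM with IL-6 and 4.92, 5.17 and 5.28 FPKM with IL-10 at 3 h, changes of -0.19 (SE 0.044, adjusted p = 0.00187) and -0.26 (SE 0.044, adjusted p = 8.84e-05). GINS3 stood at 15.7, 16.7 and 15.9 FPKM with IL-10, a change of -0.28 (SE 0.047, adjusted p = 8.66e-05), and CLSPN went from 13.99, 13.6 and 14.3 to 12.5, 12.8 and 11.96 FPKM with IL-6, a change of -0.16 (SE 0.032, adjusted p = 0.000807). The comparisons with NC share the same 3 NC libraries, and a difference of NC from all treated groups was not tested. For IL-6 at 3 h, 4 rose and 4 fell when IL-6 replicate 1 was left out, and 3 and 6 when NC replicate 3 was. Dropping the filter gave 4 and 5, total reads 3 and 14, median-of-ratios factors 5 and 11, and a fit of only the groups compared 9 and 6. For IL-10 at 3 h, 6 rose and 17 fell with median-of-ratios factors and 4 and 21 with total reads.

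After 6 h of IL-6 in HCT116 11 genes rose and 1 fell, against 11.1% and 5.45% of all genes, and after 6 h of IL-10 7 rose and 3 fell, against 14.0% and 6.49%. With IL-10 the 10 of 49 genes called were a share near that of all genes. The medians were 0.059 and -0.0099, beside 0.014 and 0.012 over all genes. PCNA stood at 253, 253 and 241 FPKM with IL-6 (0.22, SE 0.039, adjusted p = 0.00122) and 250.01, 246 and 224 FPKM with IL-10 (0.16, SE 0.039, adjusted p = 0.00572), and PRIM1 at 42.4, 38.9 and 38.4 FPKM (0.22, SE 0.054, adjusted p = 0.0108) and 41.8, 44.97 and 40.8 FPKM (0.31, SE 0.054, adjusted p = 0.00083), all above the NC libraries. CCNE2 stood at 11.4, 11.3 and 11.6 FPKM with IL-6, a change of 0.15 (SE 0.039, adjusted p = 0.0139). DUT went from 35.9, 34.9 and 33.9 to 37.6, 39.6 and 38.7 FPKM with IL-10, a change of 0.14 (SE 0.035, adjusted p = 0.00726). POLE, the catalytic subunit of the leading strand polymerase, went from 13.6, 14.4 and 14.4 FPKM to 13.1, 12.8 and 12.8 FPKM with IL-6 (-0.12, SE 0.039, adjusted p = 0.0346) and 12.7, 12.5 and 13.002 FPKM with IL-10 (-0.14, SE 0.039, adjusted p = 0.0133). E2F7 stood at 5.66, 5.499 and 5.36 FPKM with IL-10 (-0.17) and CLSPN at 12.4, 13.3 and 13.02 FPKM (-0.10, adjusted p = 0.0257).

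Several of these 6 h calls in HCT116 rested on the processing or on single libraries. For IL-6 the counts of rises and falls were 3 and 3 with total reads, 6 and 0 with no filter or without NC replicate 3, 5 and 0 without IL-6 replicate 1, and 7 and 0 without IL-6 replicate 2 or NC replicate 2. For IL-10 they were 4 and 8 with total reads, 5 and 7 with voom weights on recovered reads, and 3 and 2 with only the groups compared. They were 4 and 2 without IL-10 replicate 1 or NC replicate 2, and 4 and 1 without NC replicate 3. With IL-6, PRIM1 was lost without IL-6 replicate 1 or NC replicate 3 (adjusted p from 0.053 to 0.0647), CCNE2 with total reads (0.0782), and POLE with no filter or without IL-6 replicate 1, 2 or 3 or NC replicate 2 or 3 (0.0578 to 0.118). With IL-10, PCNA was lost with only the groups compared (0.0781), POLE without IL-10 replicate 2 or NC replicate 2 or 3 (0.0515 to 0.0568), and CLSPN with no filter (0.0605), only the groups compared (0.1) and without IL-10 replicate 1 or NC replicate 1 or 3 (0.0597 to 0.148).

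From 3 h to 6 h in HCT116 11 genes rose and 1 fell with IL-6, against 11.4% and 6.95% of all genes, and 9 rose and 1 fell with IL-10, against 11.3% and 8.71%. Beside CCNE1, CCNE2 rose with IL-6 from 9.57, 9.53 and 9.87 to 11.4, 11.3 and 11.6 FPKM (0.22, SE 0.039, adjusted p = 0.000303) and SLBP rose with IL-10 from 102, 102 and 109.7 to 124, 128 and 125 FPKM (0.27, SE 0.029, adjusted p = 1.18e-06), both without overlap. RFC4 fell from 60.8, 59.3 and 57.7 to 55.9, 53.2 and 51.1 FPKM with IL-6 (-0.15, SE 0.049, adjusted p = 0.0374) and from 63.02, 58.4 and 60.5 to 56.4, 54.5 and 50.2 FPKM with IL-10 (-0.17, SE 0.049, adjusted p = 0.0144). The RFC4 call was lost with IL-6 with no filter (adjusted p = 0.097) and without 3 h replicate 1 or 2 or 6 h replicate 2 or 3 (0.0809 to 0.155), and with IL-10 with only the groups compared (0.0757) and without 3 h replicate 1 or 6 h replicate 3 (0.0764 to 0.0937). With IL-10 the counts were 5 and 0 without 3 h replicate 1 and 3 and 0 with only the groups compared.

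**Figure D4:**
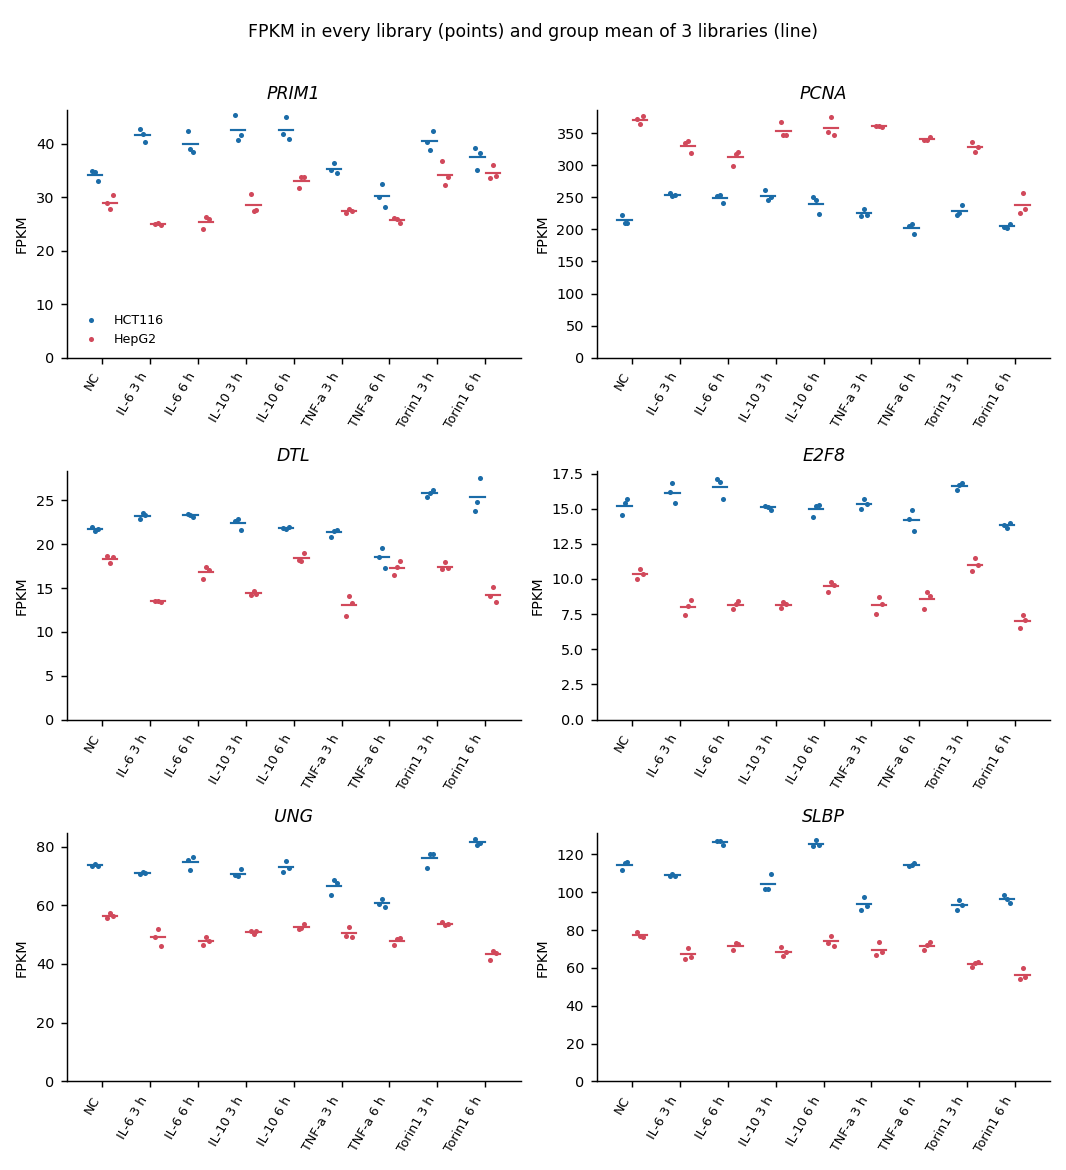
FPKM of PRIM1, PCNA, DTL, E2F8, UNG and SLBP in every library (points) with the mean of the 3 libraries of a group (short line), HCT116 in blue and HepG2 in red, over the 9 groups, with each axis starting at 0. PRIM1 and PCNA stand above NC with IL-6 and IL-10 in HCT116, and DTL dips at 3 h of each cytokine in HepG2.

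In HepG2 a large part of the set stood below NC by small amounts after IL-6. After 3 h 31 genes fell and 1 rose, against 19.5% and 14.5% of all genes, and after 6 h 29 fell and 0 rose, against 11.8% and 7.59%. The median was -0.14 at 3 h and -0.13 at 6 h, beside -0.024 and -0.013 over all genes. DTL stood at 18.7, 17.8 and 18.5 FPKM in NC and 13.5, 13.5 and 13.4 FPKM after 3 h, a change of -0.42 (SE 0.047, adjusted p = 6.04e-07), and at 16.1, 17.4 and 17.1 FPKM after 6 h. E2F8 stood at 9.98, 10.7 and 10.4 FPKM in NC, 7.46, 8.07 and 8.49 FPKM at 3 h and 7.84, 8.19 and 8.46 FPKM at 6 h, changes of -0.33 (SE 0.055, adjusted p = 7.3e-05) and -0.31 (SE 0.055, adjusted p = 0.000334). CDC6 stood at 43.01, 41.8 and 42.7 FPKM in NC, 33.3, 34.7 and 34.9 FPKM at 3 h and 42.5, 43.03 and 41.7 FPKM at 6 h, a change of -0.30 (SE 0.027, adjusted p = 2.67e-08) at 3 h and a rise of 0.30 (SE 0.027, adjusted p = 4.96e-08) between the hours. At 6 h POLA2 went from 3.898, 4.07 and 3.84 to 3.05, 3.05 and 3.11 FPKM (-0.28, SE 0.04, adjusted p = 3.12e-05) and UHRF1 from 32.3, 33.8 and 33.3 to 26.4, 26.6 and 28.9 FPKM (-0.27, SE 0.061, adjusted p = 0.00323), without overlap. CCNE2 rose at 3 h, to 2.702, 2.85 and 2.48 FPKM (0.25, SE 0.074, adjusted p = 0.0126), a call lost without IL-6 replicate 2 or NC replicate 1 (adjusted p = 0.053 and 0.0535).

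IL-10 in HepG2 gave more falls at 3 h than at 6 h. After 3 h 17 genes fell and 0 rose, against 11.9% and 7.17% of all genes, with a median of -0.072 beside -0.015. DTL stood at 14.2, 14.6 and 14.3 FPKM (-0.33, SE 0.047, adjusted p = 4.05e-05), CDC6 at 33.3, 33.5 and 34.7 FPKM (-0.32, SE 0.027, adjusted p = 8.02e-08) and E2F8 at 7.92, 8.38 and 8.23 FPKM (-0.31, SE 0.055, adjusted p = 0.000479), each below all of its NC libraries. After 6 h DTL stood at 18.2, 18.1 and 19.04 FPKM and CDC6 at 42.2, 42.7 and 43.3 FPKM, within the range of NC or near it, with rises from 3 h of 0.34 (SE 0.047, adjusted p = 2.27e-05) and 0.33 (SE 0.027, adjusted p = 1.85e-08). From 3 h to 6 h 11 genes rose and 0 fell with IL-10, against 6.43% and 9.57% of all genes, and with total reads 19 rose. With IL-6 5 rose and 7 fell from 3 h to 6 h, against 11.3% and 12.2%, and 2 and 1 with only the groups compared, 6 and 4 without IL-6 3 h replicate 2, and 6 and 3 without IL-6 6 h replicate 1. There DTL rose by 0.30 (SE 0.047, adjusted p = 6.61e-05), LIG1 fell from 13.7, 14.2 and 14.1 to 11.3, 11.8 and 11.9 FPKM (-0.25, SE 0.043, adjusted p = 0.000238) and RFC4 fell from 32.6, 32.1 and 30.6 to 27.6, 29.1 and 28.9 FPKM (-0.15, SE 0.032, adjusted p = 0.00151), the last lost with only the groups compared (adjusted p = 0.0678).

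After 6 h of IL-10 in HepG2 5 genes fell and 2 rose, against 9.80% and 1.88% of all genes. The rises were those of BRCA1, from 8.66, 8.55 and 8.69 to 10.2, 10.4 and 10.5 FPKM (0.24, SE 0.063, adjusted p = 0.0173), and PRIM1, from 28.8, 27.7 and 30.4 to 31.7, 33.8 and 33.8 FPKM (0.19, SE 0.047, adjusted p = 0.0138), both above NC in every library. RRM2 fell from 115, 115 and 113 to 103, 107 and 101 FPKM (-0.14, SE 0.032, adjusted p = 0.00832), MCM2 from 49.7, 51.1 and 50.6 to 45.7, 45.8 and 47.3 FPKM (adjusted p = 0.0374) and MCM4 from 95.4, 97.7 and 94.5 to 88.3, 87.7 and 88.4 FPKM (adjusted p = 0.0252). The other falls were those of MCM3 and MCM7, named after their values were seen, at -0.10 (SE 0.03, adjusted p = 0.0437) and -0.10 (SE 0.032, adjusted p = 0.0426). These counts rested on single libraries. Without IL-10 replicates 1, 2 or 3 the rises and falls numbered 2 and 1, 1 and 1, and 0 and 1, and without NC replicates 1, 2 or 3 they were 2 and 1, 0 and 1, and 2 and 2. Dropping the filter gave 1 and 1, total reads 2 and 1, and median-of-ratios factors 2 and 2. BRCA1 was lost with no filter (adjusted p = 0.0501) and without IL-10 replicate 3 or NC replicate 2 (0.0611 and 0.0675), PRIM1 without IL-10 replicate 2 or 3 or NC replicate 2 (0.0529 to 0.0877), MCM2 without any one of the 6 libraries (0.0538 to 0.13) and MCM4 without any one but NC replicate 3 (0.059 to 0.115). MCM2 and MCM4 were also lost with no filter, total reads or voom weights on recovered reads, and MCM2 with median-of-ratios factors, at 0.0527 to 0.131 for MCM2 and 0.0572 to 0.0879 for MCM4.

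Set against IL-10 of the same hour, which unlike NC has a time in its labels, Torin1 gave these counts. In HepG2 22 genes were lower and 9 higher at 3 h, against 24.0% and 21.5% of all genes, and 43 lower and 1 higher at 6 h, against 30.3% and 28.7%. At 6 h CDC6 differed by -1.09 (SE 0.027, adjusted p = 9.8e-18) and UHRF1 by -1.03 (SE 0.061, adjusted p = 5.58e-12), and the 1 higher gene was CDT1 at 0.17 (SE 0.068, adjusted p = 0.0357). The CDT1 call was lost with no filter or total reads (adjusted p = 0.0893 and 0.134) and without IL-10 replicate 2 or 3 or any one of the Torin1 replicates 1, 2 and 3 (0.0537 to 0.13). At 3 h FEN1 and CDC6 were lower, differing by -0.56 (SE 0.03, adjusted p = 3.64e-12) and -0.47 (SE 0.027, adjusted p = 1.34e-11), and E2F8 and E2F7 higher by 0.39 (SE 0.055, adjusted p = 6.58e-06) and 0.30 (SE 0.047, adjusted p = 2.2e-05). E2F7 stood at 6.72, 7.11 and 7.68 FPKM with Torin1 and 5.37, 5.77 and 5.72 FPKM with IL-10, beside 6.5005, 6.76 and 6.71 FPKM in NC, so the IL-10 libraries were the low ones.

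In HCT116 20 genes were lower and 14 higher with Torin1 than with IL-10 at 3 h, against 26.7% and 17.6% of all genes, and 26 and 12 at 6 h, against 33.7% and 23.6%. CCNE2 was lower, differing by -0.67 (SE 0.039, adjusted p = 3.27e-11) and then -0.92 (SE 0.039, adjusted p = 7.46e-14), GINS1 at 3 h by -0.43 (SE 0.034, adjusted p = 3.39e-09), at 17.6, 18.96 and 19.1 against 24.9, 25.05 and 26.1 FPKM, and POLE2 at 6 h by -0.72 (SE 0.063, adjusted p = 4.35e-09). CDT1 was higher by 0.21 (SE 0.047, adjusted p = 0.000791) and then 0.45 (SE 0.047, adjusted p = 5e-08), DTL at 3 h by 0.20 (SE 0.039, adjusted p = 0.000346), and MCM2 at 6 h by 0.28 (SE 0.041, adjusted p = 4.78e-06), at 70.8, 73.8 and 73.8 against 56.6, 61.5 and 61.4 FPKM.

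With TNF-a against IL-10 in HCT116 18 genes were lower and 9 higher at 3 h, against 22.2% and 14.3% of all genes, and 27 and 3 at 6 h, against 24.6% and 17.7%. PRIM1 was lower, differing by -0.26 (SE 0.054, adjusted p = 0.000792) and -0.48 (SE 0.054, adjusted p = 4.23e-07) and CCNE2 by -0.32 (SE 0.039, adjusted p = 2.4e-06) and -0.33 (SE 0.039, adjusted p = 6.91e-07). At 6 h PRIM1 stood at 29.9, 32.5 and 28.1 FPKM with TNF-a and 41.8, 44.97 and 40.8 FPKM with IL-10, on either side of NC. POLE was higher by 0.19 (SE 0.039, adjusted p = 0.000778) and 0.20 (SE 0.039, adjusted p = 0.000406), at 14.9, 13.9 and 13.9 against 11.6, 12.9 and 12.6 FPKM at 3 h. POLD1, the catalytic subunit of the lagging strand polymerase, was higher at 3 h, at 9.07, 8.33 and 8.96 against 6.95, 7.21 and 8.096 FPKM (0.22, SE 0.052, adjusted p = 0.00243). TK1 was higher at 6 h, at 129, 138 and 134 against 121, 129.7 and 126 FPKM (0.092, adjusted p = 0.0277). The libraries overlapped, and that call was lost with no filter, total reads or only the groups compared (adjusted p from 0.0665 to 0.114) and without IL-10 replicate 1 or TNF-a replicate 2 or 3 (0.0667 to 0.157).

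In HepG2 1 gene was lower and 0 higher with TNF-a than with IL-10 at 3 h, against 6.06% and 10.0% of all genes, and 22 were lower and 0 higher at 6 h, against 15.9% and 18.9%. At 6 h BRCA1 stood at 7.23, 7.87 and 7.84 against 10.2, 10.4 and 10.5 FPKM (-0.39, SE 0.063, adjusted p = 4.75e-05) and PRIM1 at 26.1, 25.99 and 25.1 against 31.7, 33.8 and 33.8 FPKM (-0.35, SE 0.047, adjusted p = 6.11e-06). IL-10 was the high group in both, without overlap. The gene at 3 h, named after its values were seen, was RFC4, at 31.3, 31.8 and 30.6 against 36.2, 34.3 and 33.5 FPKM (-0.14, SE 0.032, adjusted p = 0.00302). At 3 h 4 were lower without IL-10 replicate 1, 2 without TNF-a replicate 2 or 3, 6 with total reads, and 0 with only the groups compared. At 6 h 14 were lower without IL-10 replicate 3 or without TNF-a replicate 1 or 3.

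With IL-6 against IL-10 in HepG2 5 genes were lower and 1 higher at 3 h, against 10.9% and 12.0% of all genes, and 25 and 1 at 6 h, against 9.28% and 14.4%. The genes of these comparisons are named after their values were seen. At 3 h RFC2, E2F1, PRIM1, GINS1 and RFC4 were lower, at -0.22, -0.19, -0.18, -0.15 and -0.12, and POLE higher, at 0.11. At 3 h 3 were lower and 0 higher with no filter, without IL-10 replicate 3 or without IL-6 replicate 3, 7 and 0 with total reads, and 0 and 0 with only the groups compared. At 6 h BRCA1 stood at 6.78, 7.64 and 8.14 FPKM with IL-6 and 10.2, 10.4 and 10.5 FPKM with IL-10 (-0.42, SE 0.063, adjusted p = 4.88e-05), and the 1 higher gene was RRM2, at 0.10 (SE 0.032, adjusted p = 0.0231). Without IL-6 6 h replicate 1 the genes lower at 6 h numbered 15.

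**Figure D5:**
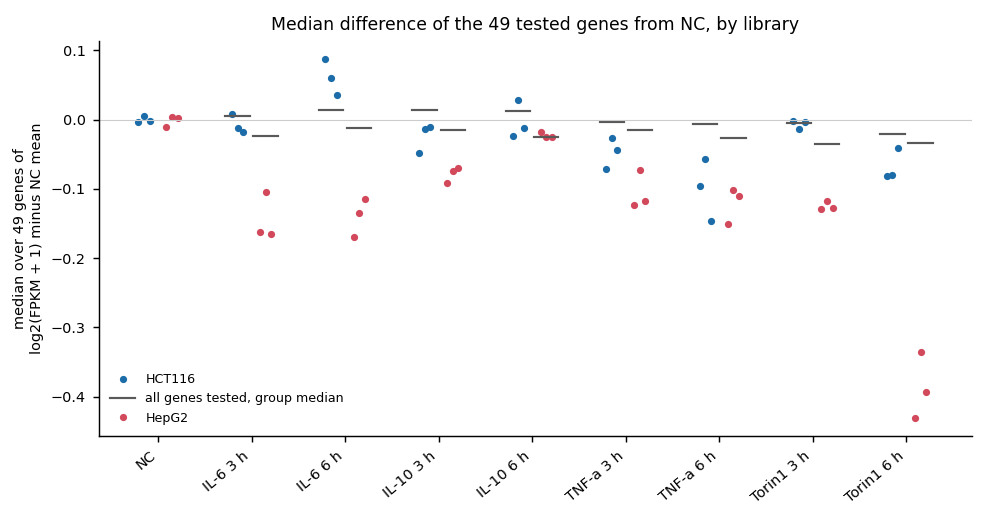
Median over the 49 genes of the difference from the NC mean on the log2(FPKM + 1) scale, for each library (points, HCT116 blue, HepG2 red) in the 9 groups, with the median over all genes tested as a grey line. The 3 HepG2 libraries after 6 h of Torin1 lie lowest, at -0.43, -0.34 and -0.39, and the HCT116 libraries of every group stay between -0.15 and 0.088.

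Other genes of the pathway, 60 that were listed apart from the 50 and of which 58 were tested in each line, were followed for context, with examples named after their values were seen. With 6 h of Torin1 36 fell and 10 rose in HepG2, against 33.8% and 26.1% of all genes, with a median of -0.18 beside -0.033. In HCT116 33 fell and 11 rose, against 31.5% and 25.8%, with a median of -0.15 beside -0.02. CDKN1A, the p53-driven inhibitor p21, fell in both, at -1.48 (adjusted p = 3.72e-13) in HepG2 and -0.88 (adjusted p = 3.27e-11) in HCT116. CDC25A, the phosphatase that activates CDK2, fell at -0.78 and -0.72, SKP2, which marks p27 for destruction, at -0.46 and -0.54, and TFDP1, the partner of E2F factors, at -0.62 and -0.42. CDKN1B, which encodes p27, and RBL2, which encodes the pocket protein p130, rose in both, CDKN1B at 0.44 and 0.79 and RBL2 at 0.37 and 0.40, HepG2 first. The 3 subunits of RPA, which covers single-stranded DNA, fell in HepG2 (RPA1, RPA2 and RPA3 at -0.32, -0.28 and -0.31). In HCT116 RPA1 fell (-0.16) while RPA2 and RPA3 rose (0.11 and 0.20). After 3 h of TNF-a in HCT116 26 of the 58 fell and 3 rose, against 22.4% and 19.2% of all genes, among them CDKN1A, which rose by 1.66 (adjusted p = 7.08e-16).

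Genes with and without the promoter letters had similar medians after Torin1. Of the 43 tested genes with a window, the 25 with a match had a median change of -0.38 after 6 h of Torin1 in HepG2 and the 18 without one a median of -0.36, with 21 and 14 falls. In HCT116 the medians were -0.04 and -0.062, with 6 rises and 11 falls among those with a match and 2 rises and 8 falls among those without. These are descriptions of the windows searched, with no test.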

How the data were processed

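RNA from 54 libraries of HCT116 and HepG2 cells was sequenced. The deposited table holds FPKM per gene and library for 50037 genes, and the authors' processing is described by tools named without versions in the submitters' processing notes: FastQC, HISAT2, StringTie and DESeq2, with the build GRCh38. What each tool was used for is not given in the sources. The FPKM values of all 36451 genes above 0 were whole multiples of a per-gene step within 0.01 of a whole read (100% of genes), which gave read totals and relative depth. The depth behind the FPKM values was 0.998 to 1.0017 times a median-of-ratios factor. A further 48 columns of 16 comparisons without names were not used. A recovery group that the series text mentions is not analysed here.

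Genes with at least 1 FPKM in 3 of a line's 27 libraries were tested with limma 3.58.1 (R 4.3.3, intensity trend, 1 mean per group) on log2(FPKM + 1), 11395 genes in HCT116 and 11280 in HepG2. Log2 changes of low genes are understated on this scale. Calls used an adjusted p under 0.05 in each of 41 comparisons separately. Differences between lines came from fits of all 54 libraries. Fits were tested on simulated data. Tables and figures used Python 3.11.15, pandas 2.3.3, numpy 2.4.6 and matplotlib 3.10.9.

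The genes, the 60 further pathway genes and the marker lists were chosen with earlier results of these data known. Genes were named by rule among those averaging 2 FPKM or more in 1 group: the 3 largest rises and 3 largest falls among the calls against NC, the 2 largest each way against IL-10 (TNF-a and Torin1) and between hours, where at least 5 genes were called, the 3 largest differences between lines, and the 3 largest each way in NC. Single members that complete a complex were added. Promoter sequences were matched by Entrez gene identifier in a RefSeq table of GRCh38.p14. Alternatives were a pseudocount of 0.1, no filter, other scalings, a replicate block, fits of the compared groups only and leaving out each library.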

Additional observations from a re-analysis of the deposited data

Results flagged for a closer look

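The change against NC differed between HCT116 and HepG2, tested as a difference of changes with limma in all 54 libraries, for 16 genes after 3 h of TNF-a, 4 after 6 h of TNF-a, 27 after 3 h of Torin1 and 40 after 6 h of Torin1, of 49 tested. Values are on the log2(FPKM + 1) scale, and a difference is the change in HCT116 minus the change in HepG2.

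After 6 h of Torin1 the largest differences were those of CDC6 (1.00, from changes of -0.09 and -1.09), UHRF1 (0.85, from -0.24 and -1.09) and TK1 (0.63, from 0.056 and -0.57). After 3 h they were CDC6 (0.73, from -0.06 and -0.79), CCNE2 (-0.61, from -0.71 and -0.10) and CCNE1 (-0.55, from -0.74 and -0.19).

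After 3 h of TNF-a they were CCNE2 (-0.57, from -0.35 and 0.22), DTL (0.44, from -0.024 and -0.46) and CCNE1 (-0.44, from -0.50 and -0.061). CCNE1 in HCT116 also fell at 3 h with IL-6 (-0.42) and IL-10 (-0.45), and DTL in HepG2 likewise (-0.42 and -0.33), against the same NC libraries. Whether their differences between lines are particular to TNF-a was not tested. After 6 h of TNF-a the largest differences were those of MSH6 (-0.32, from -0.26 and 0.064), DUT (0.20, from 0.029 and -0.18) and MCM2 (0.18, from -0.049 and -0.23). DUT and MCM2 were lost with scaling by total reads and without single libraries, as given above.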

How the results depend on the processing

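None of the 144 gene values changed sign under any alternative run. Of the 41 counts of called genes, 6 turned their majority of rises or falls under at least 1 alternative. Rises outnumbered falls in place of the reverse for HCT116 IL-6 3 h (9 and 6 with only the groups compared), HepG2 IL-10 6 h (2 and 1 with total reads or voom), and between the hours for HepG2 IL-6 (2 and 1 with only the groups compared) and TNF-a (11 and 2 with total reads). Falls outnumbered rises for HCT116 IL-10 6 h (4 rises and 8 falls with total reads, 5 and 7 with voom), and the lower differences between lines after 6 h of TNF-a outnumbered the higher (0 and 8 with total reads). Of the 144, 118 kept their call under every alternative, 22 lost it without 1 library and 21 under another setting. The edgeR test listed among the alternatives was not run, since the deposited values are FPKM, and voom weights on recovered reads were added in its place after seeing the data. The pseudocount of 0.1 moved no count by over 1.5 times, and the total of calls with Torin1 against NC did not move so far under any alternative, although its rises at 3 h in HCT116 went from 13 to 6 with total reads. With no filter, the calls went to 9 (HCT116 IL-6 3 h) and 6 (IL-6 6 h) against NC, and in HepG2 to 2 (IL-10 6 h against NC), 8 (TNF-a 6 h against 3 h) and 3 (IL-6 3 h against IL-10). With total reads they went to 6 (HCT116 IL-6 6 h), 35 (HCT116 TNF-a 6 h), 3 (HepG2 IL-10 6 h), 19 (HepG2 IL-10 6 h against 3 h), 6 (HepG2 TNF-a 3 h against IL-10) and 8 (difference between lines, TNF-a 6 h). HepG2 IL-10 6 h gave 4 with median-of-ratios factors and 3 with voom, and HepG2 TNF-a 3 h against IL-10 gave 2 with each. With only the groups compared, which leaves fewer libraries to estimate the spread, the calls were 5 (HCT116 IL-10 6 h against NC). Between the hours they were 3 (HCT116 IL-10), 14 (HCT116 TNF-a), 11 (HCT116 Torin1), 3 (HepG2 IL-6) and 10 (HepG2 TNF-a), and against IL-10 in HepG2 they were 0 (IL-6 3 h) and 0 (TNF-a 3 h). The cause of the other changes was not tested.

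Leaving out 1 library at a time gave 8 to 12 calls for HCT116 IL-6 3 h, 5 to 9 for IL-6 6 h and 5 to 11 for IL-10 6 h against NC. It gave 5 to 9 for HCT116 IL-10 and 13 to 19 for Torin1 between the hours. In HepG2 it gave 1 to 4 for IL-10 6 h and 16 to 23 for TNF-a 6 h against NC, and 11 to 13 for TNF-a between the hours. Against IL-10 in HepG2 it gave 3 to 8 for IL-6 3 h, 16 to 24 for IL-6 6 h, 1 to 4 for TNF-a 3 h and 14 to 21 for TNF-a 6 h. For the difference between lines after 6 h of TNF-a it gave 3 to 7.

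The replicate numbers gave little sign of pairing the samples in HCT116, while HepG2 leaned weakly towards same-numbered libraries. Same-numbered libraries deviated from their group means with a mean correlation of 0.0011 in HCT116 and 0.015 in HepG2. For other numbers it was -0.00057 and -0.0074. Same-numbered pairs passed 0.1 in 3 and 4 of 108 cases. Of 27 libraries per line, 10 in HCT116 and 17 in HepG2 correlated best with their own number among the 3. The main fits used no pairing. With the replicate block the calls were 4 for HepG2 TNF-a 3 h against IL-10 and 9 for the difference between lines after 6 h of TNF-a, and no other count moved by over 1.5 times. Depth limits genes of few reads most, such as CCNE2 in HepG2 with 251 to 690 reads a library, while E2F2 was too low to test.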
